A study of Mus musculus with 8 samples.

Results

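FAIRE-seq, which isolates regulatory DNA from formaldehyde-fixed chromatin for sequencing, gave 320 accessible chromatin regions that were called in both libraries of TGF-β-treated EpH4 cells and in none of the other 6 libraries. To find them, the peaks of all 8 deposited lists were merged wherever they shared at least 1 bp, which gave 37230 regions. Any overlap with a library's peak made the region called there. The 320 regions, referred to here as EpH4 TGF-β-only regions, were 0.860% of all regions. They were chosen by the measured peak calls themselves, so their presence in one group and absence from the others is the rule and not a finding.

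EpH4 is a mouse mammary gland epithelial cell line, and EpRas is its derivative transformed with an active H-Ras. Each line was cultured for 8 days with 1 ng/ml TGF-β3 or left untreated, with 2 replicate libraries in each of the 4 groups. All EpRas libraries came from cells with the introduced active H-Ras, and EpH4 libraries from cells without it. The lines also differed in serum, since EpH4 cells were grown in more serum than EpRas cells. Each genotype was represented by 1 cell line, so that effects of Ras, of serum and of the derivation of EpRas cannot be told apart. The study's methods describe the 2 libraries of a group as biological replicates.

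In chromatin, DNA that is not wrapped in nucleosomes is crosslinked to little protein, stays in the aqueous phase during phenol extraction, and is thereby enriched in FAIRE libraries. Such accessible regions mark active promoters and enhancers. TGF-β binds a receptor kinase pair that phosphorylates Smad2 and Smad3, which enter the nucleus with Smad4 and bind short GTCT and CAGAC elements, usually next to other factors such as AP1. In mammary epithelium TGF-β is known for growth arrest and, together with active Ras, for epithelial-to-mesenchymal transition (EMT), in which ZEB and SNAI repressors bind E-boxes of epithelial genes.

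The sequences below show what these regions looked like. The first set holds the 5 highest-scored distal regions with an AP1 match, where distal means over 2 kb from any annotated transcription start. Capitals mark TGAGTCA or TGACTCA, the AP1 element. All sequences printed here are the plus strand of GRCm38.p6 (mm10). Those of the first and second sets are limited to 300 bases around the middle of the region and are named by the nearest protein-coding start.

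Aqp3, chr4:41102914-41103213: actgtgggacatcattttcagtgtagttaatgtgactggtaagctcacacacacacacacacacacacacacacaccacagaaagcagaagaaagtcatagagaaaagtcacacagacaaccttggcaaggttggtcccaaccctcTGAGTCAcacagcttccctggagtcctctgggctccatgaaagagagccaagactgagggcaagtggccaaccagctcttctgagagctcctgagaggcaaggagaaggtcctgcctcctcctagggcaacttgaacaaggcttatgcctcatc
Cotl1, chr8:119817307-119817603: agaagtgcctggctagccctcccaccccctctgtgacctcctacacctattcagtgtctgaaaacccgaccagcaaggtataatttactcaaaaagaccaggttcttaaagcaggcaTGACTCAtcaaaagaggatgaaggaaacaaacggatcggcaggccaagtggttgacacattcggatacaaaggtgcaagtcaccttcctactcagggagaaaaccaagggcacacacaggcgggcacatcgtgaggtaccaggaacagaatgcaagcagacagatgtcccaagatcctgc
Tle3, chr9:61479728-61480027: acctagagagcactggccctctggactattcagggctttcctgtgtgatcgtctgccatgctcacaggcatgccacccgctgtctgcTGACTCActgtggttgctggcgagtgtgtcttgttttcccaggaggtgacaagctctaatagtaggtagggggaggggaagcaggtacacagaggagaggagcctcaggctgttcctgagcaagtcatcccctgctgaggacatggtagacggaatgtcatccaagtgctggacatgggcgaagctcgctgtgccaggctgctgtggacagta
Tpm2, chr4:43521098-43521386: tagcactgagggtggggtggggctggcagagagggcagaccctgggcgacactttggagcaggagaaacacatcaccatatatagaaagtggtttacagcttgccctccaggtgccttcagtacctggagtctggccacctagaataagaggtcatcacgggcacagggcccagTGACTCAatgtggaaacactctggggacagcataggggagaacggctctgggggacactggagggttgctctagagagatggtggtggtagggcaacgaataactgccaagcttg
Igfbp7, chr5:77530665-77530945: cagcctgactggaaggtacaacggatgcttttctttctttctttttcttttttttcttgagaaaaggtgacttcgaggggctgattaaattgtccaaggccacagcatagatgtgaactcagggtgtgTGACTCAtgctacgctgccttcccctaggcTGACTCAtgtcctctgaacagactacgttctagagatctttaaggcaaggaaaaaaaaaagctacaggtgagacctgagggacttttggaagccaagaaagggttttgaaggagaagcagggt

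The second set holds the 3 highest-scored distal regions without an AP1 match. Capitals mark matches to TEAD (ACATTCC or its reverse complement GGAATGT), ETS (here CTTCCGT), RUNX (TGTGGTT) and the SMAD half-site (CAGACA or its reverse complement TGTCTG).

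Vmn1r39, chr6:66848959-66849258: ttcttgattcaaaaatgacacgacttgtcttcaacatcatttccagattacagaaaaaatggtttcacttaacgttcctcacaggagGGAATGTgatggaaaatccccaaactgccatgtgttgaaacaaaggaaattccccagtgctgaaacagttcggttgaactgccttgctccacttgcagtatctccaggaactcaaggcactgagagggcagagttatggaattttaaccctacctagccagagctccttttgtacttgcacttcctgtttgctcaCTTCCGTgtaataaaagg
Foxl1, chr8:121293491-121293790: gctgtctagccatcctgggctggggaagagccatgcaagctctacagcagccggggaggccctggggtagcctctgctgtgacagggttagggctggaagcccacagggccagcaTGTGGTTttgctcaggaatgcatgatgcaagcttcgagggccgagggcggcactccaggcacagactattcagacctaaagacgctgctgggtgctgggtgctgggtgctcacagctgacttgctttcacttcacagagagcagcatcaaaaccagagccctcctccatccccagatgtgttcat
Cebpb, chr2:167753942-167754241: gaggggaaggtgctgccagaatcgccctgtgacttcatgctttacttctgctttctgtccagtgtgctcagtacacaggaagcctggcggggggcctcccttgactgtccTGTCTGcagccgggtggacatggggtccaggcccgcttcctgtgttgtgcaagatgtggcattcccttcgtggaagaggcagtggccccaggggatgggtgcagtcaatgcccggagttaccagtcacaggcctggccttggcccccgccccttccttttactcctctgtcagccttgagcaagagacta

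The third set shows the palindromic SMAD element GTCTAGAC, in capitals, with 36 bases on either side, for the 7 distal EpH4 TGF-β-only regions that held it in the 500 bp around their midpoint. In 5 of them the element lay inside the called region, and at P3h2 and Krt80 it lay beside it. They are named by the gene whose span held the region or, where there was none, by the nearest protein-coding start. The Adamts16 region is also the 1 nearest to the start of Ice1, 93.9 kb away, and the Cacna2d2 region is nearest to Tmem115, 40.3 kb away. It was chosen after the motif shares described further on had been seen, because this element had the largest ratio to the other distal regions among the motifs whose difference from them excluded 0.

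Adamts16, chr13:70731401-70731480: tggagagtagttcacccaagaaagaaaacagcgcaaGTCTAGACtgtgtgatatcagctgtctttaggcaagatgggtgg
Zfp664, chr5:124923253-124923332: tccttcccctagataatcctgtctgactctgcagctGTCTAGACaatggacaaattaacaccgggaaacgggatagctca
P3h2, chr16:25964214-25964293: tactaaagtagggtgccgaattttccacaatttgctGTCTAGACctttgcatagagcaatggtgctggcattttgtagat
Cacna2d2, chr9:107493722-107493801: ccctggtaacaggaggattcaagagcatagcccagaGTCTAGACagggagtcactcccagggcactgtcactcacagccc
Krt80, chr15:101332386-101332465: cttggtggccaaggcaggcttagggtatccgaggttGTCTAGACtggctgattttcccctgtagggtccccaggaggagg
Tigd2, chr6:59249796-59249875: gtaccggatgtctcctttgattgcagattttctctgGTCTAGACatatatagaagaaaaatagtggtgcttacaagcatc
Csf1, chr3:107776509-107776588: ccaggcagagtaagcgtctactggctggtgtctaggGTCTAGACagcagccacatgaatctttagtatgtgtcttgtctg

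The 8 lists held from 10821 to 27337 peaks. The lists of TGF-β-treated EpH4 cells differed in length, with 17927 peaks in replicate 1 and 10821 in replicate 2. Numbers of reads were not part of the lists, so depth was unknown, and a region without a call may have been accessible below the limit of the peak caller. The cell type was checked by peaks within 2 kb of the starts of marker genes. Of 12 epithelial markers, 6 to 8 had such a peak in each EpH4 library and 2 to 5 in each EpRas library. Grhl2 is among these markers and has an EpH4 TGF-β-only region 25 bp from its start. Its peaks in TGF-β-treated EpH4 libraries therefore include calls that chose the regions. Krt14, a basal keratin, had one in all 8 libraries, whereas Epcam and Krt5 had none in any library. Of 6 fibroblast markers at most 2 were open in a library, of 4 leukocyte markers at most 1, and the 3 endothelial and 2 adipocyte markers were open in 0 libraries.

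The count of 320 lay between the counts of the same rule in the other groups. Regions called in both libraries of 1 group and in no other library numbered 158 (0.424% of all regions) for untreated EpH4 cells, 168 (0.451%) for untreated EpRas cells and 1569 (4.21%) for TGF-β-treated EpRas cells. The longest list belonged to the group with the largest count. When each list was cut to its 10821 highest-scored peaks, the counts became 310, 259 and 466 for these groups and 325 for TGF-β-treated EpH4 cells. Only 138 regions were found both ways, which was 43.1% of the 320 regions and 42.5% of the 325. Individual regions therefore depended on list length, although their number hardly moved.

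Most sites called in both TGF-β-treated EpH4 libraries were called elsewhere too. Of 9102 such regions, 4259 were called in all 8 libraries and the 320 EpH4 TGF-β-only regions made up 3.52%. Just outside the rule were 444 regions with a call in 1 further library. That library was the first TGF-β-treated EpRas library, the longest list, for 147 of them, and an untreated EpH4 library for 111 and 121. Among the 1217 regions gained over both untreated EpH4 libraries, the EpH4 TGF-β-only regions were 26.3%, and 258 were called in all 4 EpRas libraries.

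**Figure D1:**
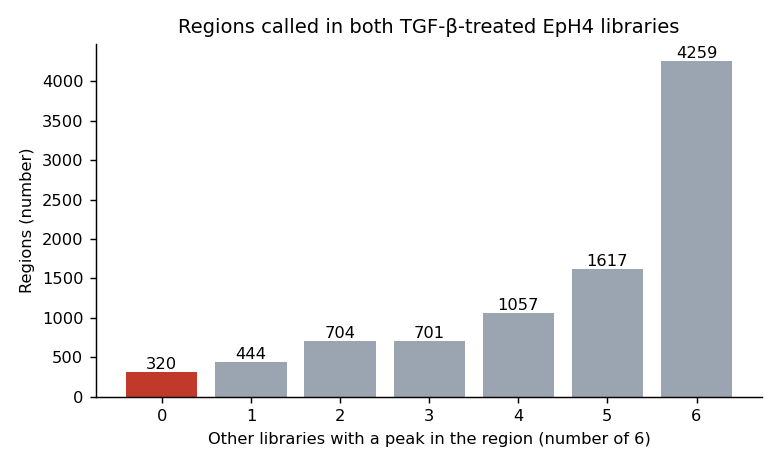
Number of regions called in both TGF-β-treated EpH4 libraries (vertical axis) by how many of the other 6 libraries had a peak in the same region (horizontal axis). The 320 EpH4 TGF-β-only regions are the bar at 0, and the bar at 6 holds the 4259 regions called in every library.

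EpH4 TGF-β-only regions were modest peaks in both replicates. The score that the peak caller gave each peak has no stated scale, so it is given as deposited and as its percentile within the library. In replicate 1 the scores ran from 6.76 to 36.31 with a median of 13.75, at a median percentile of 35.1. In replicate 2 they ran from 6.58 to 25.8 with a median of 11.74, at a median percentile of 31.2. Regions called in all 8 libraries had median percentiles of 81.2 and 68.6 in these lists, and regions called in one of these libraries alone had 21.7 and 25.6. These values follow from the calls that selected the regions and are given without a test.

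Agreement between the replicates was close in position and loose in score. The midpoints of the replicate peaks differed by a median of 31 bp, and for 234 of 320 regions by at most 50 bp. The percentiles of both replicates were weakly correlated across the 320 regions (Spearman rho 0.19, Pearson r 0.20), as a description across regions of the same 2 libraries. Only 37 regions lay above the median score in both lists, and 77 had a mean percentile over 50.

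**Figure D2:**
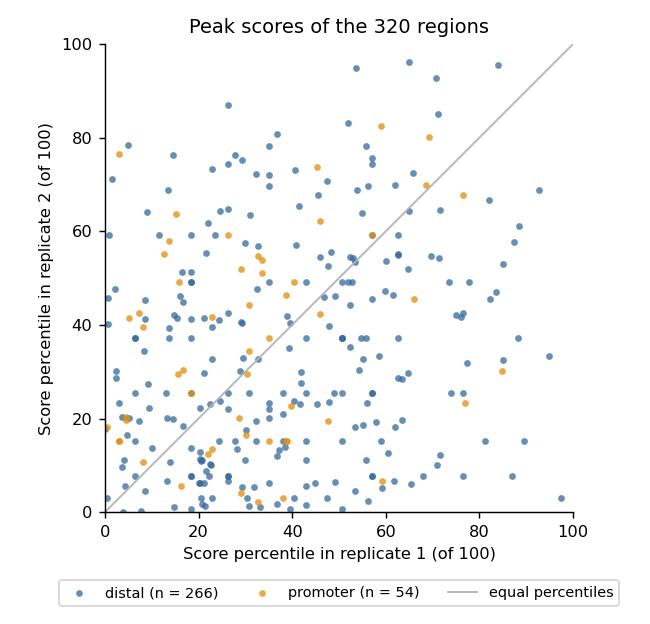
Percentile of the peak score in replicate 1 (horizontal axis) against replicate 2 (vertical axis) of TGF-β-treated EpH4 cells, 1 point per region, for 266 distal and 54 promoter regions. Points scatter widely on both sides of the line of equal percentiles, and 37 lie above 50 on both axes.

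The highest-scored EpH4 TGF-β-only region lay 4.88 kb from the start of Aqp3, which encodes a water and glycerol channel of epithelia (chr4:41102895-41103231, intergenic). Its scores were 24.16 in replicate 1 and 24.98 in replicate 2, at percentiles of 84.0 and 95.5, and the sequence printed first above holds 1 AP1 match near its middle. A second EpH4 TGF-β-only region lay 19.3 kb from the same start (chr4:41078746-41079081), with scores of 17.28 and 10.16. Within 20 kb of the Aqp3 gene, TGF-β-treated EpH4 libraries had calls in 4 and 3 of 4 regions, and the other 6 libraries in 1 or 2. Without the 2 regions selected by the rule, the treated EpH4 libraries had 2 and 1 of 2 and the others 1 or 2, with no separation. No region at this locus was called in all 8 libraries.

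The other 19 highest-scored regions are given by their position and nearest gene. An intron of Cotl1, encoding an actin-binding coactosin-like protein, held a region with scores of 18.53 and 25.8 (chr8:119817307-119817603). An intron of Tpm2, encoding a tropomyosin, held one with scores of 26.44 and 14.59 (chr4:43521098-43521386). At Pxn, which encodes the focal adhesion adaptor paxillin, a region lay 1.24 kb from a start (chr5:115507953-115508229) and scored 17.29 and 18.42. Both values were above the median of their lists.

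A region 23.6 kb from the start of the integrin αv gene Itgav was also a promoter region of the noncoding gene Gm13686 (chr2:83700675-83700996) and scored 21.52 and 15.59. Near Shroom3, whose product drives apical constriction through actomyosin, a region 3.84 kb from the start scored 16.89 and 17.55 (chr5:92679449-92679740). Introns of Shroom3 held 2 more (chr5:92812988-92813288 and chr5:92929048-92929301). Of the 15 regions at this locus, TGF-β-treated EpH4 libraries had calls in 8 and 6, untreated EpH4 libraries in 4 and 6, and EpRas libraries in 1 to 5. Without the 3 regions selected by the rule, the treated EpH4 libraries had calls in 5 and 3 of 12, within the range of the others.

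The nearest coding start to a further region was that of Tle3, a Groucho-type corepressor, 106.2 kb away (chr9:61479681-61480074; scores 20.04 and 19.1). For another it was that of the bZIP factor Cebpb, 65.2 kb away (chr2:167753936-167754247; scores 23.51 and 15.51). The promoter of Grhl2, an epithelial grainyhead-like factor, held a region 25 bp from the start (chr15:37232877-37233145; scores 19.29 and 15.91). Its nearest peak in another library, 1.26 kb away, belonged to an untreated EpH4 library. An intron of Wwtr1, which encodes the Hippo pathway coactivator TAZ, held a region scored 20.23 and 15.18 (chr3:57500887-57501131), only 0.544 kb from a peak of TGF-β-treated EpRas cells.

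The rest of the 20 lay 38.5 kb from the start of Vmn1r39, a vomeronasal receptor gene (chr6:66848904-66849313), 166 kb downstream of the start of the forkhead gene Foxl1 (chr8:121293479-121293801), and 122.8 kb from that of Igfbp7, encoding a secreted IGF-binding protein (chr5:77530665-77530945). Others lay within Kifc3 and Tnik, or nearest to the starts of Sik1 (24.5 kb), Tdrd7 (15.6 kb) and Pdpr (4.33 kb). Farther off were regions nearest to Rnf144b (168.5 kb, at the promoter of the noncoding Gm35733) and Ice1 (93.9 kb, in an intron of Adamts16). Within 20 kb of the Vmn1r39 gene itself 0 regions were called in any library, so the nearest start says little about that region. At the other end of the scale, the 5 lowest-scored regions lay nearest to Smg1, Ly6e, Pebp1, Irx4 and Glod4, with scores of 7.64 to 10.25 in replicate 1 and of 6.58 to 8.83 in replicate 2. The lowest scores came close to the lower limits of the lists.

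Most EpH4 TGF-β-only regions lay apart from each other, as so few regions over a genome mostly would, and other sets were not compared. Of the 320, 296 had no other such region within 50 kb, 8 pairs were found, and 2 groups had 4 regions each. One group spanned 83.3 kb over Col27a1, Orm1 and Akna (chr4:63302662-63386236). It comprised an intronic region of the fibrillar collagen gene Col27a1, a region 165 bp from the start of Orm1, which encodes the acute-phase protein orosomucoid, and 2 regions within Akna, which encodes an AT-hook DNA-binding protein. The Col27a1 region scored 31.88 and 11.99, and the Orm1 promoter scored 13.26 and 12.88.

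At the Col27a1 locus, all 9 regions were called in TGF-β-treated EpH4 replicate 1 and 6 in replicate 2, against 3 and 1 in untreated EpH4 libraries, 1 and 0 in untreated EpRas libraries, and 4 and 2 in TGF-β-treated EpRas libraries. At the Akna locus, 5 and 4 of 7 regions were called in TGF-β-treated EpH4 libraries and 0 to 3 in the others. These counts include the 2 regions at each locus that the rule selected for this pattern. Without them, 7 and 4 of 7 Col27a1 regions were called in TGF-β-treated EpH4 libraries and 0 to 4 in the others, and 3 and 2 of 5 Akna regions in TGF-β-treated EpH4 libraries and 0 to 3 in the others, so the values overlapped.

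The second group lay between Cryaa, a lens crystallin gene, and Sik1, encoding a salt-inducible kinase (chr17:31746721-31831502). Its regions scored from 8.82 to 24.77 in replicate 1 and from 8.57 to 17.09 in replicate 2, and 2 of the 4 lay at starts of the noncoding gene AC166654.1. At the locus of Dact2, whose product binds Dishevelled and modulates Wnt and TGF-β signaling, 2 of 3 regions were EpH4 TGF-β-only regions (chr17:14184431-14184738 and chr17:14193762-14194043). Without the 2 selected by the rule, 1 region remained. It was called in 1 untreated EpH4 and 1 TGF-β-treated EpRas library and in neither TGF-β-treated EpH4 library. The loci of Myzap, Orm2, Pebp1, Plekhg1 and Vsig10 also had 2 EpH4 TGF-β-only regions each.

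Promoters were less common among EpH4 TGF-β-only regions than among accessible regions as a whole. A start lay within 2 kb of the midpoint in 54 of 320 regions, or 16.9% (Wilson 95% interval 13.2 to 21.4), against 31.8% of all other regions. The difference of -15.0 percentage points had a 95% interval (Newcombe) of -18.7 to -10.5. Such intervals treat regions as separate counts and cover counting error only, not the spread between libraries. Introns held 134 regions (41.9%), intergenic sequence 122 (38.1%), coding exons 5, untranslated regions 3 and other exons 2.

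The promoter share was not distinguishable from that of the regions called only in TGF-β-treated EpRas cells (14.0%, difference 2.92 points with an interval of -1.20 to 7.69). It was lower than the 24.7% of regions called only in untreated EpH4 cells (difference -7.81, interval -16.0 to -0.26), the 33.3% of regions called only in untreated EpRas cells (difference -16.5, interval -24.8 to -8.41) and the 49.7% of regions called in all 8 libraries. Distal EpH4 TGF-β-only regions lay at a median of 35.3 kb from a protein-coding start, and all distal regions at 33.5 kb.

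**Figure D3:**
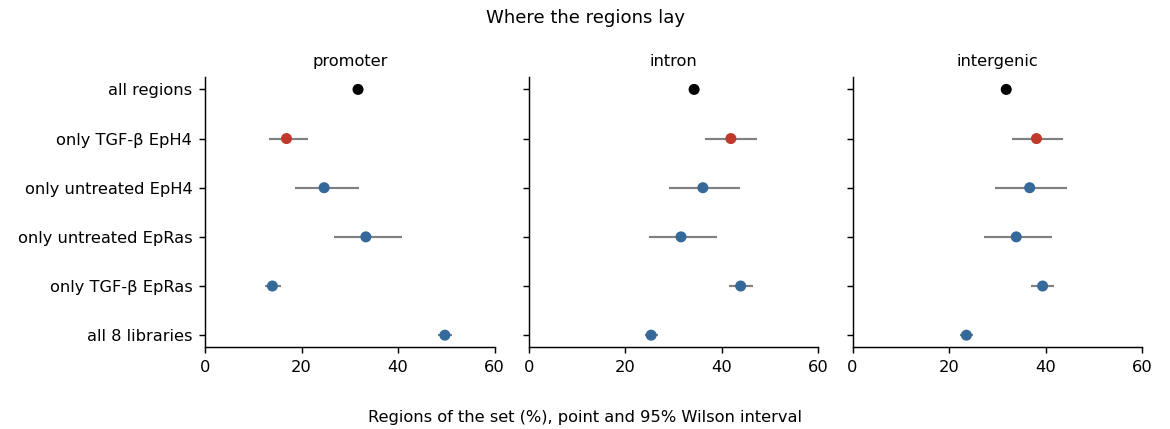
Share of regions (horizontal axes, %) at promoters, in introns and in intergenic sequence, by the set of libraries in which they were called, with 95% Wilson intervals as lines. The EpH4 TGF-β-only regions sit at 16.9% promoters, next to the regions called only in TGF-β-treated EpRas cells and below the other sets.

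Of the 54 promoter regions, 37 lay within 2 kb of a protein-coding start and 17 near noncoding starts only. After Pxn and Grhl2, the highest-scored were Bicdl1, whose product links cargo to dynein, Gimap8, a GTPase gene of the immunity-associated family, Repin1, a zinc finger gene, and Etv5, an ETS factor. Gimap8 scored 24.67 in replicate 1 and 11.64 in replicate 2, and no peak of another library lay within 27.7 kb of it. The next 9 were Triap1, Tuft1, Zfp560, Snx4, Tmpo, Orm1, Tmem25, Tcirg1 and Ccdc114. At Zfp560, Tmem25 and Orm1 the EpH4 TGF-β-only region was the single region called within 20 kb of the gene in any library. None of the 37 promoters, 0 of 37, had a second region called in all 8 libraries within 2 kb of that start.

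Genes of the pathway were covered by 10 lists of 234 genes in all, and a locus was the gene with 20 kb on each side. EpH4 TGF-β-only regions lay at 13 of these loci (5.56%), against 335 of 21924 protein-coding loci (1.53%). The listed loci were also richer in accessible regions, and of their 940 regions 12 were EpH4 TGF-β-only, or 1.28% beside 0.860% over the genome.

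Among 32 genes of TGF-β receptors, Smads and their feedback targets, 2 had an EpH4 TGF-β-only region, of which 1 is described. The Smad3 gene, encoding the main DNA-binding receptor Smad, held 1 in an intron 25.1 kb from the start (chr9:63732778-63732995; scores 14.8 and 13.34). It was 1 of 14 regions there, and 7 to 9 of them were called in each EpH4 library and 5 to 11 in each EpRas library. The Smad3 region held 1 AP1 match.

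Of 28 mesenchymal marker and matrix genes 1 was reached. Mmp9, encoding a gelatinase, had 6 regions at its locus, of which TGF-β-treated EpH4 libraries called 6 and 2, TGF-β-treated EpRas libraries 2 and 1, and the 4 untreated libraries 0. Without the region selected by the rule, the treated EpH4 libraries called 5 and 1 of 5. The EpH4 TGF-β-only region lay 15.4 kb from the nearest annotated start of Mmp9 (chr2:164932681-164932942; scores 14.13 and 10.11). The 15 EMT transcription factor genes and the 17 growth arrest and cell cycle genes had 0 EpH4 TGF-β-only regions among their 42 and 43 regions. At 0.860% of regions, fewer than 1 would be the proportionate number in lists of that size.

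Among 26 epithelial junction and splicing genes only Grhl2 was reached, and among 22 genes of mammary and epithelial identity only Trp63, the basal epithelial p53 family gene. The Trp63 region lay in an intron 33.6 kb from the nearest start (chr16:25835408-25835665; scores 12.72 and 17.05). Of the 9 regions at Trp63, EpH4 libraries called 4 to 7 and EpRas libraries 1 or 2, and without the region selected here EpH4 libraries called 3 to 6 of 8.

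Among 17 genes of AP1 factors, Junb had a region 18.7 kb away, within a coding exon of Rnaseh2a (chr8:84959874-84960145; scores 10.66 and 10.08). Among 20 ETS genes, Etv5 had the promoter region 1.79 kb from a start named above (chr16:22434586-22434858; scores 15.17 and 12.66), and Etv6 had an intergenic region beyond its end (chr6:134276910-134277242; scores 13.75 and 16.3). Etv5 was open in all groups, since 1 of its 4 regions was called in all 8 libraries.

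The list of 30 cytoskeleton and focal adhesion genes had 4 loci with an EpH4 TGF-β-only region. They were Pxn, Tpm2, Tln1, which encodes talin and shares the Tpm2 region, and Zyx, which encodes zyxin (chr6:42340038-42340270; scores 13.81 and 9.83). The 3 distinct regions were 1.61% of the 186 regions of that list, beside 3.23% (2 of 62) for the ETS genes. Among 28 cytokine and growth factor genes, Csf1, encoding macrophage colony-stimulating factor, had a region 16.1 kb away (chr3:107776425-107776758; scores 7.86 and 13.1) with 2 AP1 matches and the palindromic SMAD element printed above.

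Which motifs did the distal regions hold? Fixed letters of 21 factor families were searched on both strands in the 500 bp around each midpoint of 266 distal EpH4 TGF-β-only regions and of 25158 other distal regions. For 4 families the 95% interval of the difference in share lay above 0, and for 0 families below 0. The 4 were the SMAD half-site, the SMAD palindrome, the ZEB and SNAI E-box, and NFKB. The intervals were not adjusted for the number of families.

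The SMAD half-site, CAGACA, was found in 138 of 266 distal EpH4 TGF-β-only regions, 51.9% (Wilson 45.9 to 57.8). It was found in 41.8% of the other distal regions, a difference of 10.1 points with an interval of 4.10 to 16.1. Control windows placed 10 kb downstream of EpH4 TGF-β-only regions, outside all regions, held it in 39.8%. The share was also higher than in regions called only in untreated EpH4 cells (37.8%, difference 14.1, interval 3.28 to 24.2), only in untreated EpRas cells (29.5%, difference 22.4, interval 11.6 to 32.1) and only in TGF-β-treated EpRas cells (42.2%, difference 9.66, interval 3.11 to 16.1). Regions called in all 8 libraries held it in 45.0% (difference 6.88, interval 0.52 to 13.2). From the sets nearest to the rule it was not distinguishable. Regions with a call in 1 further library held it in 46.3% (difference 5.61, interval -2.42 to 13.6), and EpH4 gains also called in EpRas cells in 45.7% (difference 6.16, interval -1.03 to 13.3).

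The palindrome GTCTAGAC was rare everywhere, found in the 500 bp windows of 7 of the 266 distal EpH4 TGF-β-only regions, 2.63% (1.28 to 5.33), and 0.501% of the other distal regions. The difference was 2.13 points (0.776 to 4.83), and 0 of 249 control windows held it. It occurred in 7 of 1350 regions called only in TGF-β-treated EpRas cells, 0.519%, a difference of 2.11 points (0.655 to 4.83). Against the smaller sets called only in untreated EpH4 cells (1 of 119) or untreated EpRas cells (0 of 112) the intervals included 0. Regions with a call in 1 further library held it in 0.597% (difference 2.04, interval -0.02 to 4.77), and EpH4 gains also called in EpRas cells in 0.658% (difference 1.97, interval 0.28 to 4.70).

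The 7 palindrome regions printed above lay in or near Adamts16, Zfp664, P3h2, Cacna2d2, Krt80, Tigd2 and Csf1. P3h2 encodes a collagen prolyl 3-hydroxylase, Adamts16 a secreted metalloprotease and Krt80 an epithelial keratin. Their scores ran from 7.86 to 18.04 in replicate 1 and from 8.76 to 16.07 in replicate 2, and 4 of the 7 also held an AP1 match. Regions called in replicate 1 of TGF-β-treated EpH4 cells alone held the palindrome in 11 of 1347 (0.817%), and those called in replicate 2 alone in 0 of 305, which allows up to 1.24%. The corresponding half-site shares were 46.0% (difference 5.85, interval -0.70 to 12.4) and 41.6% (difference 10.2, interval 2.04 to 18.3).

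The E-box CACCTG, bound by ZEB and SNAI repressors and by other E-box factors, was found in 39.5% (33.8 to 45.5) of distal EpH4 TGF-β-only regions and in 29.1% of the other distal regions (difference 10.4, interval 4.70 to 16.4). Regions with a call in 1 further library held it in 38.5% (difference 0.966, interval -6.81 to 8.80), and EpH4 gains also called in EpRas cells in 26.6% (difference 12.8, interval 6.07 to 19.7). Regions called in replicate 1 of TGF-β-treated EpH4 cells alone held it in 37.5% (difference 1.98, interval -4.275 to 8.49). For replicate 2 alone it was 35.4% (difference 4.06, interval -3.86 to 12.0). Regions called only in untreated EpH4 cells held it in 41.2% (difference -1.70, interval -12.3 to 8.64), regions called only in untreated EpRas cells in 14.3% (difference 25.2, interval 15.6 to 33.2) and regions called only in TGF-β-treated EpRas cells in 24.7% (difference 14.8, interval 8.65 to 21.2). Control windows of EpH4 TGF-β-only regions held it in 32.9%.

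The NFKB consensus motif was found in 12 of 266 distal EpH4 TGF-β-only regions, 4.51% (2.60 to 7.72), and in 1.05% of the other distal regions (difference 3.47, interval 1.55 to 6.68). They included the region near Vmn1r39 and intronic regions of the protease gene St14, of Lasp1 and of March7. Regions called only in untreated EpH4 cells held the motif in 1.68% (difference 2.83, interval -1.82 to 6.26). For those only in untreated EpRas cells it was 0.893% (3.62, -0.81 to 6.91). For those in replicate 2 of TGF-β-treated EpH4 cells alone it was 2.62% (1.89, -1.23 to 5.35). The interval lay above 0 against regions only in TGF-β-treated EpRas cells (0.667%, 1.84 to 7.07) and those with 1 further call (1.49%, 0.285 to 6.34). With lists of equal length the NFKB share fell to 2.34% (6 of 256, Wilson 1.08 to 5.02), against 1.175% of the other distal regions. When each list was limited to its higher-scored 75% it was 2.06% (4 of 194, Wilson 0.805 to 5.18), against 1.10%. Both Wilson intervals included the share of the other distal regions. The SMAD half-site kept shares of 49.6% and 51.0% with these shortened lists, against 42.4% and 42.3% of the other distal regions.

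**Figure D4:**
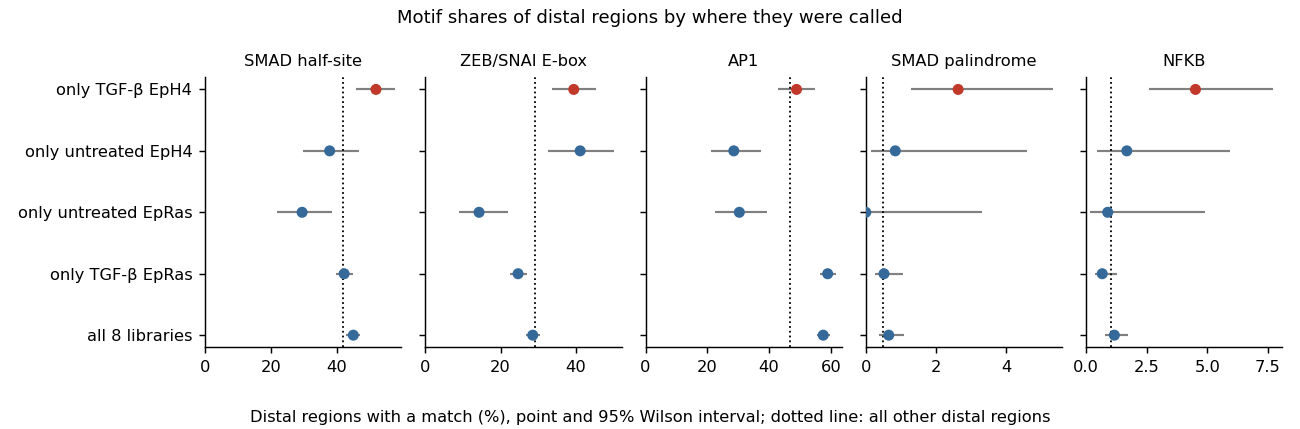
Share of distal regions with a match to each of 5 motifs (horizontal axes, %) by the set of libraries in which the region was called, with 95% Wilson intervals as lines and the share of all other distal regions as a dotted line. The SMAD half-site is highest in EpH4 TGF-β-only regions at 51.9%, the E-box is above the dotted line in both EpH4-only sets, and AP1 in EpH4 TGF-β-only regions sits at 48.9%, near the dotted line.

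AP1 was strongly enriched over control windows, but its share was not distinguishable from that of the other accessible regions. A match was found in 130 of 266 distal regions, 48.9% (42.9 to 54.9), against 8.43% of control windows, a 5.80-fold enrichment. The other distal regions held it in 46.6%, a difference of 2.24 points with an interval of -3.74 to 8.26. The share was higher than in regions called only in untreated EpH4 cells (28.6%, difference 20.3, interval 9.77 to 29.8) or only in untreated EpRas cells (30.4%, difference 18.5, interval 7.69 to 28.3). It was lower than in regions called only in TGF-β-treated EpRas cells (59.0%, difference -10.1, interval -16.6 to -3.55). It was also lower than in regions called in all 8 libraries (57.5%, difference -8.64, interval -14.9 to -2.30). The same held for EpH4 gains also called in EpRas cells (56.1%, difference -7.21, interval -14.3 to -0.03). Regions with a call in 1 further library held AP1 in 44.2% (difference 4.69, interval -3.31 to 12.6).

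The AP1 matches were few per region and central. There were 148 in all, with 1 in 112 regions, 2 in 18 and 3 or more in 0 regions. Of the matches, 90 (60.8%) lay within 50 bp of the midpoint, beside 61.5% over all distal regions. The share with a match did not follow the score. Split into 4 equal bins by mean percentile from the highest to the lowest, the distal regions held AP1 in 46.3, 52.2, 53.0 and 43.9%. SMAD half-sites were found in 53.1% of the regions with AP1 (69 of 130) and in 50.7% of those without it (69 of 136), and 67 distal regions (25.2%) held neither, beside 31.8% of the other distal regions.

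ETS (ACGGAAA or ACGGAAG or CCGGAAA or CCGGAAG; 9.40% against 9.08%), RUNX (19.2% against 17.9%) and TEAD (12.0% against 12.3%) showed no difference between EpH4 TGF-β-only and other distal regions whose interval excluded 0. CTCF sites were found in 3.38% against 5.91%, again with an interval that included 0. The full NF1 palindrome was found in 0 of 266 regions and CEBP in 1 (0.376%), beside 0.0835% and 0.417% of the other distal regions, and both intervals included 0. Base composition differed slightly, with a mean GC content of 47.5% in the motif windows of distal EpH4 TGF-β-only regions and 45.7% over all distal regions. When the other distal regions were weighted to the GC content of the EpH4 TGF-β-only regions, 43.1% held the SMAD half-site, 0.503% the palindrome, 31.8% the E-box and 1.13% NFKB. Repeats covered 12.9% of these windows and 15.5% over all distal regions.

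EpH4 TGF-β-only regions were spread unevenly over chromosomes. Chromosome 6 held 37 of them, or 11.6%, with 5.24% of all regions, and chromosome 5 held 34, or 10.6%, with 6.09%. Chromosome 14 held 1 and chromosome 12 held 5. The rule required no call in EpRas libraries, and chromosomes 6 and 16 held a smaller share of each EpRas list than of each EpH4 list. On chromosome 6 lay 6.17 to 6.80% of the peaks of each EpH4 library and 4.01 to 4.46% of each EpRas library, and on chromosome 16 3.70 to 4.09% and 2.80 to 2.98%. What part this had in the 54 EpH4 TGF-β-only regions on chromosomes 6 and 16 was not tested. Without these chromosomes 266 regions remained, and the SMAD half-site share of the distal ones was 54.3%.

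The surroundings of EpH4 TGF-β-only regions differed by line, whereas the treatments overlapped within EpH4. Of the peaks of each library outside these regions, the share within 50 kb of one was 3.77 and 3.90% in TGF-β-treated EpH4 libraries and 3.80 and 3.71% in untreated ones. In EpRas libraries it was 2.88 and 2.99% in untreated and 2.69 and 2.94% in TGF-β-treated ones. The EpH4 values of both treatments overlapped each other, and all 4 lay above the 4 EpRas values. The rule asked for calls in EpH4 libraries and for none in EpRas libraries. A difference between lines nearby is therefore not independent of the calls that chose the regions, and is given without a test. Without chromosomes 6 and 16 the EpH4 values were 3.57 to 3.67% and the EpRas values 2.54 to 2.87%.

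**Figure D5:**
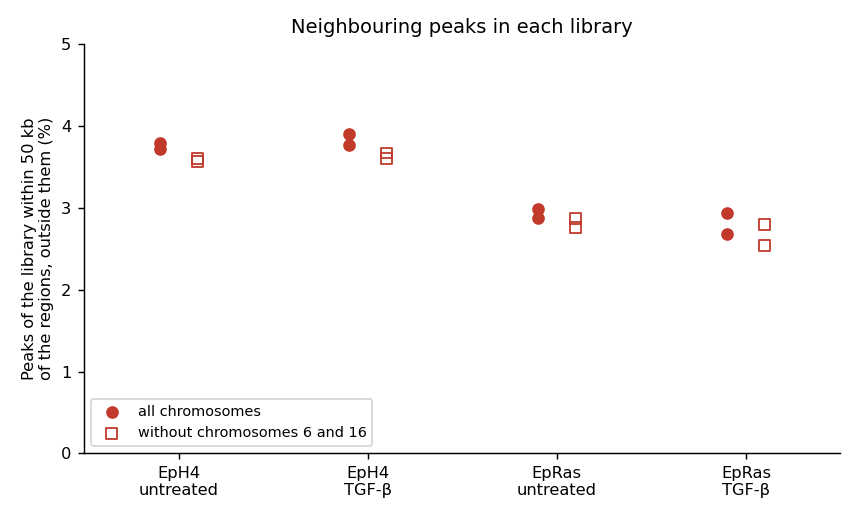
Share of the peaks of each library that lay within 50 kb of an EpH4 TGF-β-only region but outside it (vertical axis, %), 1 point per library by group (horizontal axis), with all chromosomes (filled circles) and without chromosomes 6 and 16 (open squares). The 4 EpH4 libraries sit above the 4 EpRas libraries whatever the treatment.

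A peak of another library was usually not far away. The nearest lay at a median of 12.5 kb, within 50 kb for 263 of 320 regions (82.2%) and within 500 bp for 19 (5.94%). The nearest was most often in the longest list, the first TGF-β-treated EpRas library. For 217 of 320 regions (67.8%), no region called in all 8 libraries lay within 50 kb. Only 4259 regions were called in all 8 libraries, fewer than the peaks of any list. This share therefore cannot be set against the share with a peak of another library nearby. Other sets of regions were not compared for either share.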

How the data were processed

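FAIRE-seq peak lists of 8 libraries were used, 2 for each of 4 groups, which were taken from the sample titles. The methods state that the authors trimmed Ion Proton reads to a fixed short length, used bowtie2 for alignment to mm10, and took peaks from MACS2 (2.0.9 per the labels) at a limit on the q value. The deposited score of each peak has no stated scale and served only to rank peaks within a library. Whether a control entered peak calling is not given in the sources used here. No read counts were used, so depth was unknown.

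Peaks were merged at 1 bp of overlap (Python 3.11, pandas, pysam; samtools for the genome index). Annotation was GENCODE vM21 (basic set) and sequence GRCm38.p6, the build of mm10, and 0 peaks reached beyond a chromosome end. Positions are 1-based. The gene whose span held a region was taken as its host, and the gene Gm20388, a long readthrough model with 238 regions at its locus, was not used to name regions. Motif windows were 500 bp, and control windows lay 10 kb downstream.

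No test over samples was made, because the calls selected the regions and regions are not replicates. Shares have Wilson and differences Newcombe 95% intervals. The regions, gene lists and motifs were chosen with earlier results of these data known. Regions were named by a rule: the 20 highest and 5 lowest by mean score percentile, up to 15 coding promoters, all at listed genes, and groups of 3 or more within 50 kb. Genes with several EpH4 TGF-β-only regions and motif-bearing regions were named after their values were seen. The merging and the motif search were tested on simulated data. Alternatives were list length, score limit, left-out libraries, overlap, distances, motif window and, chosen after seeing the data, GC content. The values of 1 listed locus are not reported here.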

Additional observations from a re-analysis of the deposited data

How the results depend on the processing

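The number of 320 regions was 325 with lists of equal length, 247 with the higher-scored 75% of each list, 301 without regions within 500 bp of another library's peak, 320 when the overlap had to reach 50% of the region or the peak (3 lost and 3 gained) and 266 without chromosomes 6 and 16. It was 1217 when only untreated EpH4 libraries had to lack the region. Leaving out each library gave 328 to 2069 regions, the highest without replicate 2 of TGF-β-treated EpH4 cells and 727 without replicate 1, because a single list then decided the call. The promoter share of 16.9% became 21.2% with lists of equal length and 21.5% with the higher-scored 75%. It was 13.1% within 1 kb of a start, 26.3% within 5 kb and 11.6% for protein-coding starts, and 17.4 to 21.9% with a library left out. The promoter shares of the other sets under these settings are not given here. The AP1 share of 48.9% became 40.2% in windows of 200 bp, and 37.8 to 49.5% with a library left out, both low values being those without a TGF-β-treated EpH4 library. The difference in neighbouring peaks between TGF-β-treated EpH4 libraries and the other 6, 0.667 points, was 0.154 within 10 kb and 1.14 within 100 kb, and 0.607 to 1.56 with a library left out (1.30 and 1.56 without a TGF-β-treated EpH4 library, 1.13 and 1.06 without an untreated one). The other 6 pooled untreated EpH4 with EpRas libraries. Mean shares were 3.83 and 3.75% in treated and untreated EpH4 libraries, and 2.81 and 2.93% in treated and untreated EpRas libraries.

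In alternatives chosen after seeing the data, the SMAD half-site difference of 10.1 points stayed between 7.22 and 12.5, the palindrome difference of 2.13 points between 1.27 and 2.24 and the E-box difference of 10.4 points between 7.07 and 11.7. The NFKB difference of 3.47 points was 1.17 with lists of equal length and 0.962 with the higher-scored 75%, and the cause was not tested. No paired analysis was made, because no test was run and the sample titles do not say that replicates were matched across groups.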
